A study of Mus musculus with 2 samples.

Results

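The genes described are 7 membrane transporters of the liver for organic anions and cations. They were chosen by symbol and comprise 5 members of the Slco family (Slco1a1, Slco1a4, Slco1b2, Slco2a1 and Slco2b1), Slc22a7 and Slc47a1. The transcript table lists 45777 genes by symbol, of which 15857 had at least 10 counts in at least 1 library, and all 7 transporters were among these in both libraries. Liver RNA came from C57BL/6 mice that were 7 weeks old when a high-fat diet (HFD) was started, and the diet was continued for 18 weeks in both groups. After 13 weeks of diet, and 5 weeks before the end, the control group received AAV-GFP, an adeno-associated virus that encodes green fluorescent protein, and the other group received AAV-Wee1-AS, which encodes the long noncoding RNA Wee1-AS. Per the study's methods, AAV-Wee1-AS had a CMV promoter and the AAV9 serotype, which the methods describe as not specific to hepatocytes. They add that the virus given by this route accumulates substantially in the liver. The comparison asks how liver RNA differed once Wee1-AS was overexpressed. The sex of the mice is not given in the labels, nor is the number of mice behind a library, and Wee1-AS itself was not analysed here.

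Hepatocytes take up bile acids, bilirubin, steroid and thyroid hormone conjugates and many drugs from the sinusoidal blood through organic anion transporting polypeptides, which the Slco genes encode, and through members of the Slc22 family. Once inside, these compounds are conjugated or metabolized, and they leave across the canalicular membrane into bile, partly through ATP-driven pumps. Slc47a1 stands at this exit, since it encodes MATE1, which exchanges organic cations for protons and exports them. In mouse liver, Slco1a1 is known for higher RNA levels in males and Slco1a4 for higher levels in females.

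One library per group was available. No spread between mice could be estimated, no test was made, and a ratio compares these 2 libraries. The libraries held 55466182 (AAV-GFP) and 48079335 (AAV-Wee1-AS) estimated counts. With the libraries scaled by TMM, the log2 ratio of AAV-Wee1-AS over AAV-GFP had a median of −0.02 over the 15857 genes, and the middle 95% of genes lay between −1.82 and 2.52. More than 2-fold higher were 22.2% of genes, more than 2-fold lower 8.71%, and 31.0% passed 2-fold in either direction. The 95% counting interval of the ratio lay wholly above 2-fold for 16.0% of genes. The ratio moved with the base composition of the transcripts (Spearman coefficient −0.673 with GC content and 0.345 with length across 15109 genes, which are not independent replicates), and each of the 7 transporters is therefore given with its GC content and with its ratio after removal of both trends. After removal of both trends, 7.50% of genes were more than 2-fold higher and 8.42% more than 2-fold lower. Counting intervals cover counting error only, and not the spread between mice. They may be too narrow even for that, since amplified reads are not independent molecules and the counts are estimates.

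Slco1a1 and Slco1b2 carried the highest ratios, and Slco1b2 and Slco2b1 differed between their annotated 5′ ends, so the start regions of these 3 genes are shown. The RefSeq windows hold 250 bases before and 50 bases after an annotated start (build GRCm38.p6), and the table has 7 windows for 5 of the 7 transporters. They were searched on both strands for TTCNNNGAA, the palindrome of STAT5, and for AGGTCA, a core motif of nuclear receptors. Capitals mark the matches, and none of the printed matches overlaps another. Each window is printed 5′ to 3′ on the strand of its gene.
Slco1a1, chr6:141946913-141947212, minus strand: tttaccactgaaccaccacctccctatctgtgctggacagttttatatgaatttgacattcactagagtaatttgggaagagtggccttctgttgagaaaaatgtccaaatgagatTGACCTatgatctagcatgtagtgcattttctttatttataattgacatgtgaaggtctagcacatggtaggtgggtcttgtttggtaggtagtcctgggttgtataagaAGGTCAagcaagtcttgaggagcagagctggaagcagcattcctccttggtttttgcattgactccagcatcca
Slco1b2, chr6:141629268-141629567, plus strand: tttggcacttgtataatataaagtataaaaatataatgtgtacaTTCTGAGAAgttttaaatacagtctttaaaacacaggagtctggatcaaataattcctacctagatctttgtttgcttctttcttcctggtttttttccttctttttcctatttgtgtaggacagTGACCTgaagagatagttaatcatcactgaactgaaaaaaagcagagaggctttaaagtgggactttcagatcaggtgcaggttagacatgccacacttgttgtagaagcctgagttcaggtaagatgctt
Slco2b1, middle start, chr7:99706793-99707092, minus strand: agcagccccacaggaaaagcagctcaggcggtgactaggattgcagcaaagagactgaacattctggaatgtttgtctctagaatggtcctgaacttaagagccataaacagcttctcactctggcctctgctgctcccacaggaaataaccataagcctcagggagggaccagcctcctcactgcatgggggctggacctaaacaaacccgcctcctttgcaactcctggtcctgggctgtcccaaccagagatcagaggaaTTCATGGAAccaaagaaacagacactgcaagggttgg
Slco2b1, downstream start, chr7:99695760-99696059, minus strand: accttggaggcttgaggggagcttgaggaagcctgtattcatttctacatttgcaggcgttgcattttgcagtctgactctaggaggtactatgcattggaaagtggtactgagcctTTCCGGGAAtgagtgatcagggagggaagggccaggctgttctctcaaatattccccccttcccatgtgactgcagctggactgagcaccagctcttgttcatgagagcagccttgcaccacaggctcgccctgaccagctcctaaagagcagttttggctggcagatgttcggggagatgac

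Counted from the start base as position 0, the Slco1a1 window had an AGGTCA from −24 to −19 and its reverse complement TGACCT from −134 to −129. The Slco1b2 window had matches of both motifs, with TGACCT from −81 to −76 and TTCTGAGAA from −206 to −198. Its start base is the 5′ end of NM_020495, and the other 2 annotated Slco1b2 transcripts start 66 bases upstream. In Slco2b1, TTCATGGAA lay from 13 to 21 in the window of the middle start and TTCCGGGAA from −133 to −125 in that of the downstream start. The windows of Slco1a4, Slco2a1 and the most upstream Slco2b1 start held neither motif. Of 32851 windows of the same length, 8.3% held TTCNNNGAA and 16.3% AGGTCA, so a match is a description of the letters and not of a bound site. The GC content of the printed windows was 42% for Slco1a1, 35.3% for Slco1b2, and 52.3% and 53% for the middle and downstream starts of Slco2b1.

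Among the 7 transporters, 3 were more than 2-fold higher in the AAV-Wee1-AS library, namely Slco1a1, Slco1b2 and Slc22a7, and 0 were more than 2-fold lower, beside 22.2% and 8.71% of all genes. The counting interval of the same 3 lay wholly above 2-fold. Slco1a4 was higher by less than 2-fold, Slco2a1 and Slco2b1 were lower by less than 2-fold, and the interval of Slc47a1 held a ratio of 1. The median log2 ratio was 0.69 over the 7 genes, against −0.02 over all genes. After removal of the trends with GC content and length, the same 3 transporters were more than 2-fold higher and 0 were lower, beside 7.50% and 8.42% of all genes, with a median of 0.09.

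**Figure D1:**
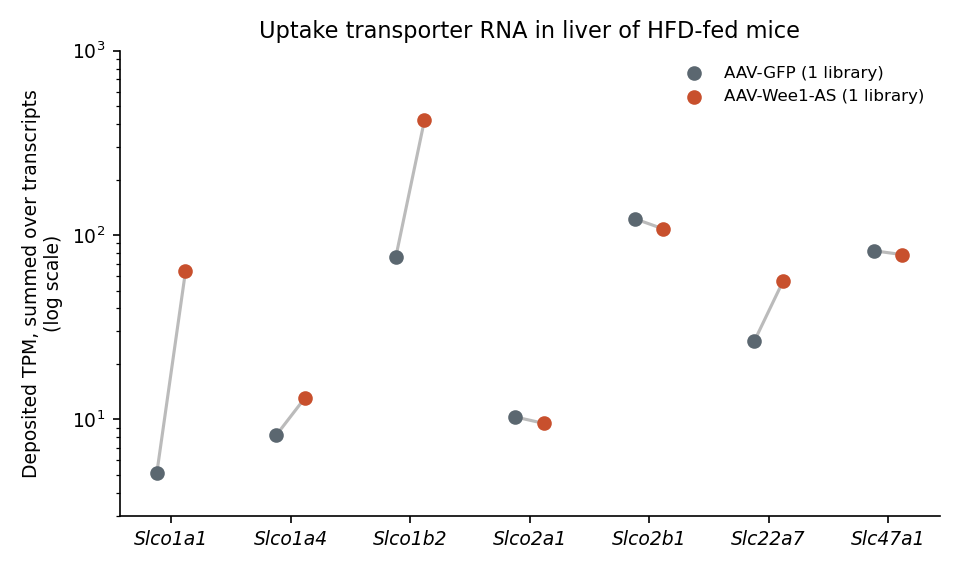
Level of each transporter in the 2 libraries, as the authors' TPM values summed over transcripts, on a log10 axis. Each point is 1 library and has no error bar, and grey lines join the libraries of a gene. Slco1a1 goes from 5.11 to 63.5 TPM and Slco1b2 from 75.9 to 420 TPM, while Slco2a1, Slco2b1 and Slc47a1 stay near their AAV-GFP level.

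Per length, the transporters changed places. In the AAV-GFP library, Slco2b1 was the highest at 123 TPM, followed by Slc47a1 (82.2), Slco1b2 (75.9), Slc22a7 (26.5), Slco2a1 (10.3), Slco1a4 (8.21) and Slco1a1 (5.11). In the AAV-Wee1-AS library, the order was Slco1b2 (420 TPM), Slco2b1 (108), Slc47a1 (78.3), Slco1a1 (63.5), Slc22a7 (56.0), Slco1a4 (13.1) and Slco2a1 (9.50). Slco1a1 thus moved from the last place to the fourth, and Slco1b2 from the third to the first. With 1 library per group, it cannot be said which neighbours in either order differ beyond the spread between mice. The summed level of the 7 genes was 331 TPM with AAV-GFP and 748 TPM with AAV-Wee1-AS, a ratio of 2.26. Without Slco1b2 the sums were 255 and 328 TPM, a ratio of 1.29. Slco1b2 made up 23.0% of the summed level with AAV-GFP and 56.2% with AAV-Wee1-AS, whereas the share of Slco2b1 was 37.1% and 14.4%.

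Slco1b2 encodes OATP1B2, the rodent counterpart of the human hepatic transporters OATP1B1 and OATP1B3, which takes up bilirubin, bile acids and statins and is found mainly in hepatocytes. The gene (ID 28253) lies on the plus strand of chr6:141629452-141686646 in mm10, and its longest GENCODE transcript has 16 exons. It had 8226 counts with AAV-GFP and 38461 with AAV-Wee1-AS, and the 95% Poisson intervals of these counts (8049 to 8406 and 38078 to 38847) were far apart. The scaled ratio was 5.61 (95% counting interval 5.48 to 5.75), or 2.49 on the log2 scale. Slco1b2 has a GC content of 38.6% and belongs to the 1511 genes of lowest GC content (31.0 to 41.5%), of which 65.2% were more than 2-fold higher and whose median log2 ratio was 1.43. The value of Slco1b2 lay inside the middle 95% of these genes (−0.59 to 3.05). With the trends removed its log2 ratio was 1.20, a 2.29-fold difference, which lay inside the middle 95% of all genes on that scale (−1.76 to 1.58).

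Counts of Slco1b2 were assigned to 3 transcripts with 2 annotated 5′ ends, and their shares differed between the libraries. The 2 transcripts that start at position 141629452 had 5329 counts with AAV-GFP and 36366 with AAV-Wee1-AS, a log2 ratio of 3.03 (2.99 to 3.08). NM_020495, which starts 66 bases downstream and whose window is shown above, had 2897 and 2095 counts, a log2 ratio of −0.20. The share of the upstream 5′ end was thus 64.8% (exact binomial 95% interval 63.7 to 65.8) with AAV-GFP and 94.6% (94.3 to 94.8) with AAV-Wee1-AS. The single transcript XM_017321611 went from 3247 to 28098 counts, or from 39.5% to 73.1% of the gene. Such counts are shared out between overlapping transcripts by an estimate, so the split between starts 66 bases apart is less certain than the sum over the gene, and the binomial intervals do not cover that uncertainty. Counting only the most abundant transcript gave a log2 ratio of 3.40 for the gene.

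Slco1a1 encodes OATP1A1, which takes up bile acids and conjugated steroids at the sinusoidal membrane. The gene (ID 28248) lies on the minus strand of chr6:141907281-141946962, in the same stretch of chromosome 6 as Slco1b2 and Slco1a4, has 15 exons and is listed with 1 transcript, NM_013797. It had 668 counts (95% Poisson interval 618 to 721) with AAV-GFP and 7028 (6865 to 7194) with AAV-Wee1-AS. The gene model Gm30843, which overlaps Slco1a1, had 16 and 6. The counts with AAV-Wee1-AS exceeded those with AAV-GFP 12.6-fold after scaling (11.7 to 13.7), a log2 ratio of 3.65 (3.54 to 3.78). This was the largest ratio among the 7 transporters and lay above the middle 95% of all genes and also above that of the 1511 genes of lowest GC content, to which Slco1a1 belongs (GC content 38.5%). With the trends removed the log2 ratio was 2.27, a 4.83-fold difference, again above the middle 95% of all genes. Across the other settings except removal of the trends, its log2 ratio lay between 3.19 and 3.68.

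**Figure D2:**
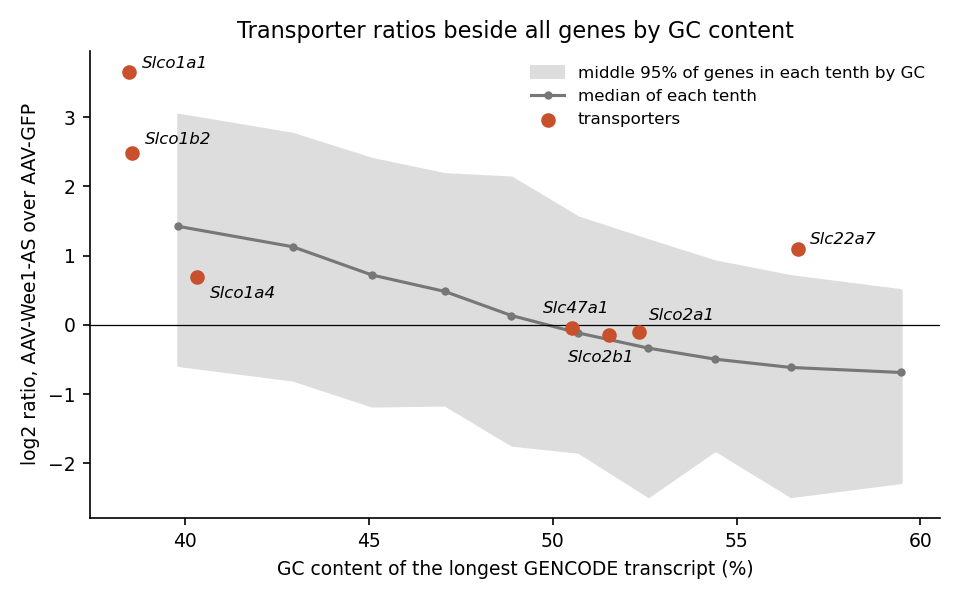
Log2 ratio of AAV-Wee1-AS over AAV-GFP (vertical axis) against the GC content of the longest GENCODE transcript in percent (horizontal axis). Grey points and line give the median of 10 equal groups of genes ordered by GC content, the band gives their middle 95%, both drawn at the median GC content of each group, and red points are the 7 transporters. Slco1a1 (3.65) and Slc22a7 (1.10) lie above the middle 95% of the groups they belong to, and Slco1b2 lies within it.

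Slco1a4 encodes OATP1A4, which carries cardiac glycosides and bile acids and is also present at the blood-brain barrier. The gene (ID 28250) lies beside Slco1a1 on the minus strand of chr6:141805438-141856284, with 17 exons in its longest GENCODE transcript. It had 1002 counts with AAV-GFP and 1348 with AAV-Wee1-AS, and the scaled ratio was 1.61 (1.49 to 1.75), short of 2-fold. The log2 ratio of 0.69 was below the median of 1.43 of genes of like GC content (40.3% for Slco1a4), and with the trends removed it turned to −0.57, a ratio of 0.673. The direction for Slco1a4 therefore depended on this step, unlike those for Slco1a1 and Slco1b2. Slco1a1 and Slco1a4 also exchanged places within the pair, as the TPM of Slco1a1 per TPM of Slco1a4 was 0.622 with AAV-GFP and 4.85 with AAV-Wee1-AS.

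The counts of Slco1a4 were spread over 7 listed transcripts. NM_001355577 had 799 and 757 counts, so that its share was 79.7% with AAV-GFP and 56.2% with AAV-Wee1-AS. NM_030687, which has the same start and end, had 2 and 157 counts, a log2 ratio of 5.51 with a counting interval of 4.68 to 9.62. XM_011241585 had 0 and 159 counts and was 63.6-fold higher with the 0 set to a floor of 3 counts. The higher sum of Slco1a4 thus lay mostly in transcripts with few or no counts with AAV-GFP, and these transcripts overlap NM_001355577 over most of their length. The near copies Slco1a5 and Slco1a6 were at 0 in both libraries, a count that allows up to 3 counts each. Reads that fit several of these genes equally could be assigned to any of them, and whether that took place here was not tested.

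**Figure D3:**
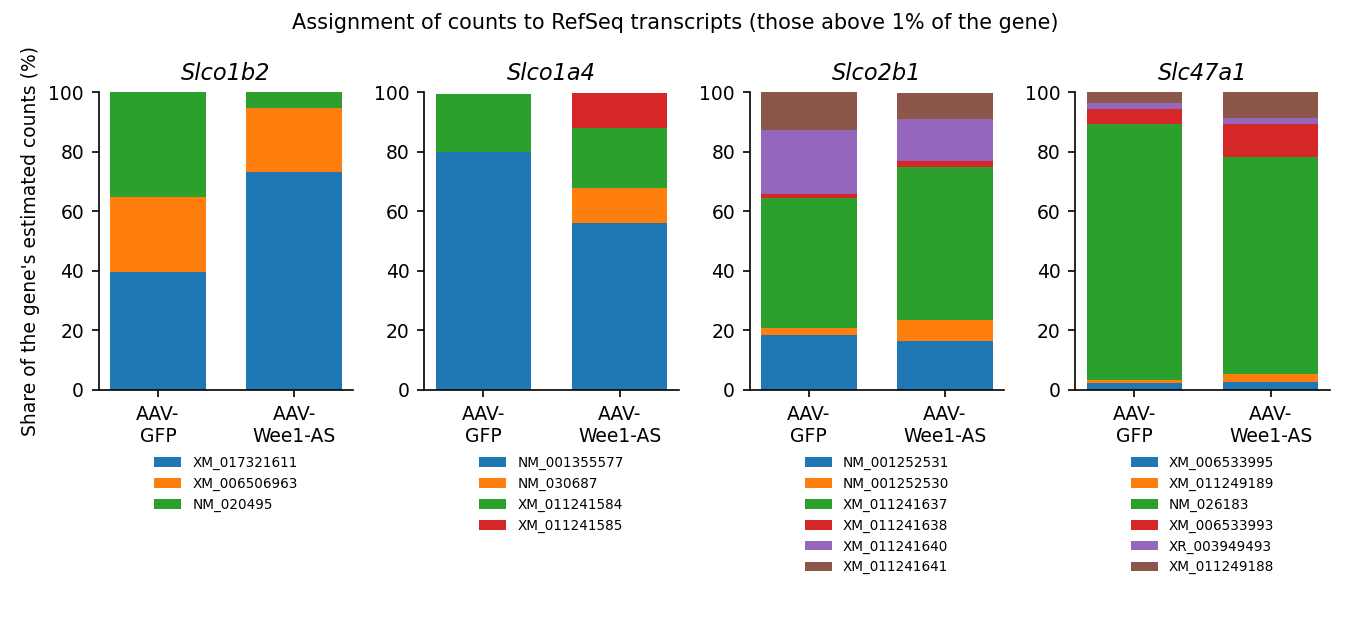
Share of the estimated counts of a gene assigned to each RefSeq transcript in each library, in percent, for Slco1b2, Slco1a4, Slco2b1 and Slc47a1; transcripts at or below 1% of the gene in both libraries are left out. Bars are single libraries. NM_020495 takes 35.2% of Slco1b2 with AAV-GFP and 5.45% with AAV-Wee1-AS, and NM_001355577 takes 79.7% and 56.2% of Slco1a4.

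Slco2b1 encodes OATP2B1, a transporter of sulphated steroids and several drugs that occurs in liver and intestine. The gene (ID 101488) spans chr7:99657804-99711340 on the minus strand. Its 16710 counts with AAV-GFP and 12610 with AAV-Wee1-AS gave a scaled ratio of 0.906 (0.885 to 0.927), and it had the most counts of the 7 genes in the AAV-GFP library. The value was close to the median of genes of like GC content (log2 ratio −0.14 for Slco2b1 against −0.12 for the 1510 genes between 49.8 and 51.6%), and with the trends removed it was −0.09. Counting only the most abundant transcript turned its sign to 0.13. The overlapping gene model Gm34280 had 11 and 6 counts.

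Within Slco2b1, the annotated starts differed. The 6 transcripts that begin at the downstream cluster (99695577 to 99695809) had 16306 and 11708 counts, a log2 ratio of −0.21 (−0.25 to −0.18). NM_001252530, which begins at the middle start at 99706842, had 385 counts with AAV-GFP and 878 with AAV-Wee1-AS, a log2 ratio of 1.45 (1.28 to 1.63). Its share of the gene was 2.30% (2.08 to 2.54) and 6.96% (6.52 to 7.42). The most upstream start, at 99711340, had 19 and 24 counts, too few to separate the libraries. The middle start therefore went the opposite way from the bulk of the gene while supplying a small part of its counts. The window printed above for the downstream start is that of NM_001252531, which had 18.5% and 16.5% of the counts, and it ends before position 99695711, where transcripts with most of the counts begin.

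Slco2a1 encodes the prostaglandin transporter, which clears prostaglandins from the extracellular space and is known from endothelium as well as other cells. The gene (ID 24059) lies on the plus strand of chr9:103007061-103096002. It had 1977 and 1528 counts, and the ratio of 0.928 had an interval of 0.867 to 0.992. This interval lay just below 1 and covers counting error only, so the difference cannot be set against variation between mice. The 2 transcripts that took the counts had similar shares in both libraries, with 51.7% and 49.7% for XM_006511731 and the remainder for NM_033314. The GC content of Slco2a1 was 52.3%, and with the trends removed its log2 ratio was −0.31.

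Slc22a7 encodes OAT2, which carries small organic anions and cyclic nucleotides. The gene (ID 108114) is on the minus strand of chr17:46432185-46438477, has 10 exons and is listed with the single transcript NM_144856. Counts were 1755 (95% Poisson interval 1674 to 1839) with AAV-GFP and 3140 (3031 to 3252) with AAV-Wee1-AS. The scaled ratio was 2.15 (2.03 to 2.28), just inside the 2-fold limit, and scaling by the upper quartile brought it to 1.86, outside that limit. Slc22a7 differed from Slco1a1 and Slco1b2 in its GC content of 56.7%. Of the 1511 genes between 55.4 and 57.7%, 1.32% were more than 2-fold higher and 18.9% more than 2-fold lower, and the middle 95% of their log2 ratios lay between −2.48 and 0.71. The log2 ratio of Slc22a7, 1.10, lay above this range, and with the trends removed it was 1.81, a 3.50-fold difference, above the middle 95% of all genes on that scale. Gm36541, a gene model that overlaps Slc22a7, had 5 and 27 counts, far fewer than Slc22a7.

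Slc47a1 (ID 67473), on the minus strand of chr11:61343400-61378842, had 7131 counts with AAV-GFP and 5763 with AAV-Wee1-AS. The scaled ratio was 0.970 (0.937 to 1.00), the only interval of the 7 that held 1, and the log2 ratio was −0.04 before and 0.09 after removal of the trends, at a GC content of 50.5%. At the level of transcripts, NM_026183 had 85.7% of the counts of Slc47a1 with AAV-GFP and 72.9% with AAV-Wee1-AS. Transcripts with 5′ ends on either side of NM_026183 took larger shares, among them XM_006533993 (377 and 635 counts) and XM_011249188 (260 and 499) upstream of it and XM_011249189 (77 and 144) downstream. The neighbouring gene Slc47a2 encodes the related transporter MATE2 and is known from kidney. It had 19 counts with AAV-GFP and 0 with AAV-Wee1-AS, 5.28-fold lower with the 0 set to the floor of 3 counts.

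**Figure D4:**
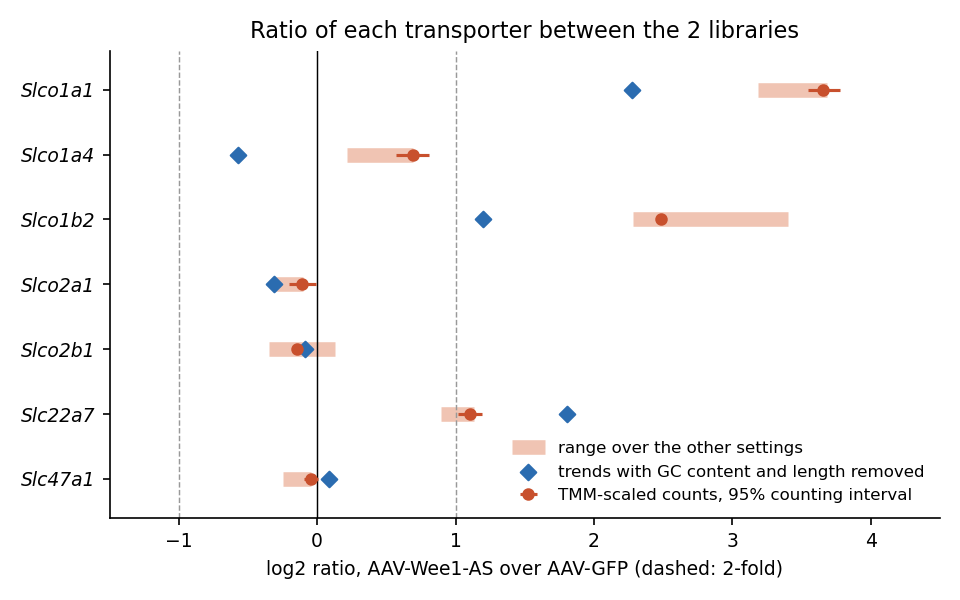
Log2 ratio of AAV-Wee1-AS over AAV-GFP for each transporter. Red points with bars are TMM-scaled counts with their 95% counting intervals, pale bars span the main and 8 other settings of scaling, prior count, unit and transcript choice, blue diamonds are ratios with the trends in GC content and length removed, and dashed lines mark 2-fold. Slco1a1 and Slco1b2 stay above 2-fold in every setting drawn, and Slco1a4 changes sign with the trends removed.

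The other genes of these families were read as lists beside the 7 transporters. Of 10 other Slco genes, 7 were at 0 in both libraries and only Slco3a1, which transports prostaglandins, passed the count filter, with 321 and 150 counts and a log2 ratio of −0.83. Each of the 5 Slco transporters described above had more counts than Slco3a1 in both libraries. Of 25 other Slc22 and Slc47 genes, 16 passed the filter. Of these, 5 were more than 2-fold higher (31.2%, beside 22.2% of all genes) and 1 (Slc47a2) was lower (6.25%, beside 8.71%). Their median log2 ratio was 0.25. With the trends removed, 2 were higher and 1 was lower, beside 7.50% and 8.42% of all genes, and the median was 0.17. The 5 were Slc22a28 (514 and 1105 counts, log2 ratio 1.36), Slc22a30 (1820 and 3684, 1.28), Slc22a29 (134 and 248, 1.14), Slc22a26 (24 and 95, 2.15) and Slc22a2 (0 and 39, 15.6-fold higher with the 0 set to the floor). The last 3 of these were named after their values had been seen. Slc22a26, Slc22a28, Slc22a29 and Slc22a30 belong to a cluster of organic anion transporter genes of rodents and had a GC content of 40.0 to 42.1%. With the trends removed, their log2 ratios were 1.17, 0.44, 0.04 and 0.15. Slc22a27, of like GC content (41.6%), had 354 and 467 counts. Its log2 ratio of 0.66 was short of 2-fold and turned to −0.32 with the trends removed. Placing the 2 genes with 0 counts in 1 library at their values against the floor left the median of the list at 0.25.

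Bile acid uptake and export was read from 13 genes, of which 12 passed the filter. Of these, 4 were more than 2-fold higher (33.3%, against 22.2% of all genes) and 1 was lower (8.33%, against 8.71%). The median log2 ratio was 0.67. Slc10a1, which encodes the bile acid uptake transporter NTCP, had 21297 and 25120 counts and a log2 ratio of 0.50, well below that of Slco1b2. At the canalicular membrane, Abcb11, which encodes the bile salt export pump, went from 9664 to 17961 counts (log2 ratio 1.16), and Abcg2, an exporter of urate and drugs, from 3233 to 5653 (1.07). Atp8b1, a phospholipid flippase of the canaliculus, had 529 and 1286 counts (1.54), and Abcb1b, a drug efflux pump named here after its value had been seen, had 22 and 65 (1.73). The 1 lower gene was Slc51b, a subunit of the basolateral bile acid exporter, with 54 and 6 counts (−2.58), also named after its value had been seen. With the trends removed, the values were 0.36 for Abcb11, −0.53 for Abcg2 and 0.55 for Atp8b1, and the list median was −0.01. On that scale Slco1a1, Slco1b2 and Slc22a7 stayed past 2-fold. Of the bile acid list, 1 gene was then higher (Abcb1b at 1.00) and 1 lower (Slc51b at −2.28), both from few counts. The shares of all genes on that scale were 7.50% and 8.42%. Whether the uptake transporters differ from the exporters could not be tested with 1 library per group.

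**Figure D5:**
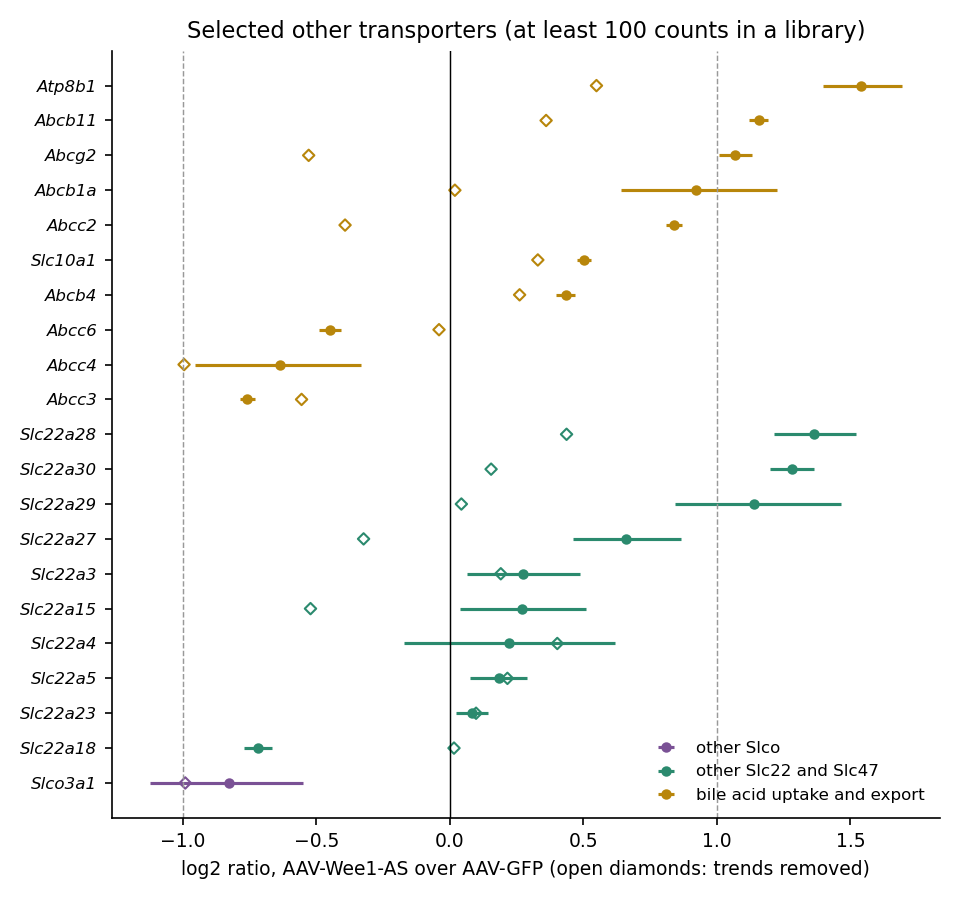
Log2 ratio of AAV-Wee1-AS over AAV-GFP for selected other transporters with at least 100 counts in a library. Filled points with bars are TMM-scaled counts with 95% counting intervals, open diamonds are values with the trends removed, colours give the list, and dashed lines mark 2-fold. Atp8b1 (1.54) and Abcb11 (1.16) lie above 2-fold, and their diamonds (0.55 and 0.36) lie below it.

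Transcription factors and receptors that act on these genes formed a list of 19, all of which passed the filter. Of these, 2 were more than 2-fold higher (10.5%) and 1 was lower (5.26%), both shares below those of all genes (22.2% and 8.71%). Hnf4a, which encodes a factor that maintains hepatocyte genes, had a log2 ratio of −0.06, or 0.20 with the trends removed. Nr1i2 and Nr1i3, the receptors PXR and CAR for drugs and steroids, had 0.13 and 0.35, and Nr1h4, the bile acid receptor FXR, had 0.23. With the trends removed, Nr1i2, Nr1i3 and Nr1h4 were at 0.59, 0.75 and −0.03. Nr0b2, a repressor induced by FXR, was lower (2304 and 872 counts, log2 ratio −1.14, or −0.37 with the trends removed). Nr5a2, a nuclear receptor of bile acid synthesis, was higher (815 and 2184, 1.68, or 0.56 with the trends removed), as was the hepatocyte factor Onecut1 (162 and 358, 1.40, or 1.28). Stat5a and Stat5b, which transmit the growth hormone signal in liver, had log2 ratios of −0.60 and −0.45, or −0.07 and −0.39 with the trends removed.

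Because Slco1a1 and Slco1a4 are sex biased in mouse liver, genes known for male or female bias were read as well. Of 12 measured male-biased genes, 3 were more than 2-fold higher (25%, beside 22.2% of all genes) and 0 lower, with a median log2 ratio of 0.34 (order-statistic interval −0.27 to 1.01). With the trends removed, 3 were higher and 1 was lower, beside 7.50% and 8.42% of all genes. Of the 3, only Hsd3b5 was past 2-fold on both scales. Selenbp2 (0.45 before and 1.06 after) and Serpina1e (0.59 and 1.01) stood in place of Cyp7b1 and Nudt7 (1.01 and 0.33 for Nudt7). Hsd3b5, a steroid dehydrogenase of male liver, went from 228 to 2638 counts, a log2 ratio of 3.78 that was 3.73 with the trends removed, beside 3.65 and 2.27 for Slco1a1. Cyp7b1, an oxysterol hydroxylase, had a log2 ratio of 1.26, or 0.37 with the trends removed. The abundant male-biased genes Mup20 and Cyp2d9 had −0.37 and −0.01, which became −1.38 and 0.53. Of 16 female-biased genes 12 passed the filter, 5 of these were more than 2-fold lower (41.7%, against 8.71% of all genes) and 2 higher (16.7%, against 22.2%), and the median log2 ratio was −0.76 (−2.74 to 0.98). Few counts lay behind Cyp3a41b (16 and 0) and A1bg (12 and 4) of the lower genes and Sult1e1 (11 and 21) of the higher. On the scale without the trends, 4 were lower, beside 8.42% of all genes, and 0 higher, with a median of −0.96. Cyp3a16 (22 and 11 counts) was then among the lower genes, while Cyp2a4 (−0.96) and A1bg (−0.65) were not. Cyp3a44 went from 330 counts to 0, 91.6-fold lower with the 0 set to the floor. Cyp2b13 went from 4219 to 526 (log2 ratio −2.74, or −2.77 with the trends removed). Fmo2 went the other way, from 251 to 547 counts (1.38, or 0.41). The intervals of both medians held 0 and overlapped, and the lists were not tested against each other. Whether sex or growth hormone state differed between the mice was not tested.

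Cell composition was read from marker lists, since in bulk tissue fewer cells of a type and less RNA per cell cannot be told apart. Hepatocyte markers, of which 11 of 12 were measured, summed to 92826 TPM with AAV-GFP and 102120 TPM with AAV-Wee1-AS, and none was at 0. Of this sum, Alb made up 37459 and 53289 TPM, and the median log2 ratio of the list was −0.01, with 5 markers higher and 6 lower. The 16 endothelial markers summed to 367 and 287 TPM with a median log2 ratio of −0.24, beside −0.11 for Slco2a1. The 14 markers of Kupffer cells summed to 1026 and 686 TPM, although 4 of them (Cd163, Marco, Vsig4 and Timd4, named after their values had been seen) were more than 2-fold higher (28.6%, beside 22.2% of all genes) and 2 were lower (14.3%, beside 8.71%). Of the Kupffer cell markers, 2 were higher and 0 lower with the trends removed, beside 7.50% and 8.42% of all genes. The 12 of stellate cells summed to 384 and 275 TPM, and the 10 of bile duct cells to 54.5 and 47.6 TPM, and no marker of these lists was at 0 in both libraries. Of the bile duct markers, Cftr was at 0 with AAV-GFP. Of the stellate cell markers, 5 were more than 2-fold lower (41.7%, beside 8.71% of all genes), such as the collagen gene Col3a1 (log2 ratio −2.03). Another 2 were higher (16.7%, beside 22.2%), Rgs5 (1.58) and Lrat (1.46). After removal of the trends, 5 were lower, beside 8.42% of all genes, and 0 higher. Rgs5 was then at 0.34 and Lrat at 0.11, and among the lower markers Dcn (−1.22) stood in place of Pdgfrb (−0.90). Kidney markers, read because kidney tubules are rich in these transporter families, summed to 0.138 and 0.217 TPM, and 7 of the 10 were at 0 in both libraries. The markers thus showed liver RNA, and the part of cell composition in the transporter ratios was not tested.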

How the data were processed

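Poly-A RNA of 1 AAV-GFP and 1 AAV-Wee1-AS liver library was sequenced after preparation with a stranded kit. Per the labels, the submitters' processing notes name Trimmomatic 0.38, HISAT2 2.1.0, SAMtools 1.9 and StringTie 2.1.3b and the build mm10. Whether counting used strand is not given in the sources used here. For each of 129299 RefSeq transcripts the authors deposited an estimated count that is not normalized and is shared out between overlapping transcripts. The deposited FPKM values are scaled to transcript length and library, and the deposited TPM values sum to 1000000 per library. Transcripts were summed by gene symbol, as the rule for the 7 transporters states. The members and gene lists were chosen with earlier results of these data known.

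Libraries were scaled by TMM over all genes with a count (edgeR 4.0.16, R 4.3.3; factors 1.02 and 0.980), a prior count of 2 was added before the log2 ratio, and genes were kept if either library had 10 counts or more. A gene was counted as higher or lower past 2-fold, and its 95% interval is exact (Clopper-Pearson, from the 2 counts). For folds given against the floor, a library at 0 was set to 3 counts. Log2 ratios and calls past 2-fold of such genes used the prior count. GC content and length came from the longest GENCODE M21 transcript and were found for 95.3% of genes kept, and their trends were removed by lowess fits (span 0.3, 5 cycles; Python 3.11.15, statsmodels 0.14.6). The steps were tested on simulated data. Named genes are the 7 transporters, near copies and neighbours of theirs, and list genes that reached 100 counts in either library and whose interval lay wholly past 2-fold (at most 4 per list), with the most abundant genes of the marker lists. Other genes named from the lists of regulators, sex-biased genes, transporters and markers were chosen after their values had been seen. The listed symbols Tf and Slp were not used here, and some list genes are not reported here.

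Scaling by library totals (with and without the 20 most abundant genes), by DESeq2 1.42.0 and by the upper quartile was tried in place of TMM. Other alternatives were a prior count of 0.5, the deposited TPM and FPKM with a pseudocount of 1, removal of the trends, the most abundant transcript only, 3 other count filters and a 1.5-fold limit.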

Additional observations from a re-analysis of the deposited data

How the results depend on the processing

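Of the 7 transporters, 3 were more than 2-fold higher and 0 lower under the alternatives tried, except that the upper quartile left 2 (Slc22a7 at a ratio of 1.86) and a 1.5-fold limit gave 4. The upper quartile shifted the median log2 ratio of all genes to −0.22 and the split of higher and lower genes from 3527 and 1381 to 2938 and 2232. Genes more than 2-fold higher numbered 1608 with deposited TPM, 1029 with deposited FPKM and 1133 with the trends in GC content and length removed. Genes more than 2-fold lower numbered 438 with TPM, 307 with FPKM, 2126 with no filter, 884 with at least 10 counts in both libraries and 825 with at least 50 in 1 library, and 3802 passed a 1.5-fold limit. The cause of these shifts was not tested. Log2 ratios turned sign for Slco1a4 (−0.57) and Slc47a1 (0.09) with the trends removed and for Slco2b1 (0.13) with the most abundant transcript only. List medians turned sign with the trends removed for bile acid transport (−0.01), bile duct markers (0.18), hepatocyte markers (0.20) and regulators (0.11), with the upper quartile for the central (−0.14) and portal (−0.11) zones, and with the most abundant transcript only for hepatocyte markers (0.02) and the central zone (−0.05). With 1 library per group, no replicate could be left out, and no paired analysis was possible because the groups share a single number each. Depth does not limit the 7 transporters, which had at least 668 counts, but it limits transcripts with few counts.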

Other observations

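Genes that form, bind, conjugate or export bilirubin, a substrate of Slco1b2, were read as a list of 10. Of these, 0 were more than 2-fold higher and 3 lower (30%, beside 8.71% of all genes), with a median log2 ratio of −0.69 (−0.68 with the trends removed). The 3 were glutathione transferases of the alpha class, which bind bilirubin and other anions in the hepatocyte. Gsta1 had 2185 counts with AAV-GFP and 249 with AAV-Wee1-AS (log2 ratio −2.86), Gsta2 had 1895 and 478 (−1.72), and Gsta4 had 4198 and 1469 (−1.25). Gsta3, the most abundant of the class, had 81004 and 65618 counts, a log2 ratio of −0.04 that became −1.15 with the trends removed, so that 4 genes were more than 2-fold lower on that scale, beside 8.42% of all genes. Ugt1a1, which conjugates bilirubin, had a log2 ratio of −0.30, or −0.57 with the trends removed. Hmox1, Blvra and Blvrb, which act in the breakdown of heme to bilirubin and related pigments, had −0.61, −0.18 and −0.79. With the trends removed, their values were −0.10, −0.79 and −0.25. Blvra was named here after its value had been seen. Abcc2, the canalicular exporter of bilirubin conjugates, had a log2 ratio of 0.84, which turned to −0.39 with the trends removed. Abcc3, an exporter to blood, had −0.76 and −0.55.

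Markers of the liver zones were read as well. Of 14 genes of hepatocytes around the central vein, 2 were more than 2-fold higher (14.3%, against 22.2% of all genes) and 0 lower, with a median log2 ratio of 0.07 and a range of −0.90 to 1.54. Of 14 genes of hepatocytes around the portal vein, the counts were also 2 and 0, with a median of 0.10 and a range of −0.85 to 1.21. The highest and lowest of the central zone were Slc1a2 (1.54) and Slc1a4 (−0.90), and those of the portal zone were Cps1 (1.21) and Cyp2f2 (−0.85). Removal of the trends left Slc1a2 at 0.12 and Cps1 at 0.43. On that scale, 1 gene of the central and 0 of the portal list were more than 2-fold higher, beside 7.50% of all genes. The 1 gene was Tbx3 (log2 ratio 1.00 before and 1.20 after). The most abundant genes, Cyp2e1 and Ass1, had log2 ratios of 0.21 and −0.14 before removal of the trends. Both turned sign after it, to −0.07 and 0.48.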
